A study of Mus musculus with 12 samples.

Results

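Pla2g4e, Thbd, Atp1b3 and Spata13 were set apart in a mouse tongue data set as genes with a higher level in the second dimmest of 4 bins of Sox2 reporter brightness than in the bins on either side of it. They are 4 of the 52670 gene symbols measured and 4 of the 17432 tested. They were selected on their measured levels in MedLow, Low and HiMed in these same libraries, so those differences are given as a description, without a test. The name fits 3 of the 4 on the count scale. Spata13 goes against it, because its highest level was in the brightest bin. All 4 passed the filter on low counts.

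The epithelium of the circumvallate papilla, a taste papilla that lies far back on the tongue, was taken from adult Sox2GFP mice of 11 to 12 weeks, whose cells glow green in proportion to a reporter of the transcription factor Sox2. Cells were freed with enzymes and sorted into 4 bins, Low, MedLow, HiMed and High, and cells without green fluorescence were thrown away. All groups carry the reporter, and the labels do not say how it was built or whether it changes Sox2 itself. Each bin has 3 libraries of polyadenylated RNA, 12 in all, and each replicate pooled 7 to 13 mice, so every library is a mix of animals and of cell types. A difference between bins can reflect fewer cells of a type or less RNA per cell, and in bulk libraries these cannot be told apart. Means are given ± SD over 3 libraries. CPM, the count scaled to a common library size with TMM (trimmed mean of M values), compares 1 gene across libraries, and TPM, the transcript abundance scaled to a fixed sum, also compares genes with each other because it corrects for length.

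Stratified epithelium renews from basal cells on the basement membrane, whose daughters move up and make the suprabasal keratins Krt4 and Krt13, the keratin partners of the moist, non-cornified lining of mouth and oesophagus. Pla2g4e encodes a cytosolic phospholipase A2 of group IV, which in mice works as a calcium-dependent N-acyltransferase that makes precursors of N-acylethanolamine lipids. Thbd encodes thrombomodulin, the cell surface receptor that turns thrombin into an activator of protein C and that suprabasal keratinocytes carry besides endothelium. Atp1b3 encodes a beta subunit of the Na,K-ATPase, the pump that keeps sodium low inside cells, and Spata13 encodes Asef2, an exchange factor that switches on the small GTPases Rac1 and Cdc42 and binds the tumour suppressor Apc.

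The stretch just before the transcription start is shown for these genes and for Krt13 because a shape shared across bins raises the question of what their promoters have in common. The 250 bases upstream of annotated starts were taken from RefSeq on mouse build GRCm38.p6, which is not the mm39 build of the deposited values, for 3 of the 4 genes, and Thbd and Krt4 are named without a sequence. Capitals mark matches, on either strand, to AP-1 (TGANTCA), Sox (ATTGTT), the Klf CACCC box (CCACCC), Ets (CCGGAA) or the TATA box (TATAAA). The CACCC box and the other motifs do not overlap in these windows.
Pla2g4e, chr2:120245336-120245585, minus strand: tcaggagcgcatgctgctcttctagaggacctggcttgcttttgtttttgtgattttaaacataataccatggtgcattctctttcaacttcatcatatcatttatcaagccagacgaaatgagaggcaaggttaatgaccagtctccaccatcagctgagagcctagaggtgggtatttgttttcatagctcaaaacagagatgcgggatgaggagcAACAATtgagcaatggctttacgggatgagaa
Atp1b3, first of 2 starts, chr9:96364432-96364681, minus strand: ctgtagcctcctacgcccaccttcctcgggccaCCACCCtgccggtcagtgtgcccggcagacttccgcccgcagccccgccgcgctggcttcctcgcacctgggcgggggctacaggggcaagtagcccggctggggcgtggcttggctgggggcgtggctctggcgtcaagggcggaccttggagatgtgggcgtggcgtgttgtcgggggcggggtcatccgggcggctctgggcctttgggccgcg
Spata13, first of 2 starts, chr14:60634455-60634704, plus strand: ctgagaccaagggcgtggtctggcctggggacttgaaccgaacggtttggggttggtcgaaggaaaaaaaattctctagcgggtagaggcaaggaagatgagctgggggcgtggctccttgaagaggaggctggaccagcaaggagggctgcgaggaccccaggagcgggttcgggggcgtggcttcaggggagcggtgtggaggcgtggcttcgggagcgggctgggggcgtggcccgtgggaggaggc
Spata13, second of 2 starts, chr14:60732654-60732903, plus strand: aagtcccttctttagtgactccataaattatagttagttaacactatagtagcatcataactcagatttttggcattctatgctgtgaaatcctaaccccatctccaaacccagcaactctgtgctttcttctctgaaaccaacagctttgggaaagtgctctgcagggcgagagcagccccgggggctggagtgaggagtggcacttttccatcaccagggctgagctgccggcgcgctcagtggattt
Krt13, first of 2 starts, chr11:100121567-100121816, minus strand: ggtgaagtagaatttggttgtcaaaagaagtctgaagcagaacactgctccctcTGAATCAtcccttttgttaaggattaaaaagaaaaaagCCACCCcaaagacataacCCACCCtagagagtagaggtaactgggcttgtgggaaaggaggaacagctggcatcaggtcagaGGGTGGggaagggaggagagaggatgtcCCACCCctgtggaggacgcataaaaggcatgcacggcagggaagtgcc

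The windows differ in composition and share no motif across all of them. The Pla2g4e window is 43.2% G and C and holds 1 Sox match, AACAAT, 32 bases before the start. The Atp1b3 window above is 73.6% G and C and holds 1 CACCC box 217 bases before the start, and the window of its other start is 76.8% G and C with 1 CACCC box and 1 Ets match. The Spata13 windows, at 65.6% and 48.8%, hold no match to any of the 5 motifs. The Krt13 window has 1 AP-1 match at 196 bases and 4 CACCC boxes at 158, 140, 76 and 48 bases before the start, and the window of its other start is 39.6% G and C with 2 AP-1 matches and no CACCC box. Over 32851 windows of the same length, a match was found to AP-1 in 6.75%, to Sox in 9.42%, to the CACCC box in 28.1%, to Ets in 12.0% and to the TATA box in 12.4%, and the median content of G and C was 52.4%. A match of letters is not a binding site.

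Libraries held 25.7 M to 55.6 M counts, and the common biological coefficient of variation was 0.366. Sox2 followed the sort, with means of 70.3, 98.0, 171 and 373 CPM in Low, MedLow, HiMed and High, and the eGFP transcript of the reporter had means of 84.2, 145, 246 and 538 CPM. HiMed replicate 1 stands apart from the other 2 HiMed libraries in suprabasal keratins, with 0.383 times their mean for Krt4 and 0.359 times for Krt13. It is the lowest HiMed library for 41.0% of genes tested, and for 3 of the 4 genes, at 0.603 times the mean of the other 2 for Pla2g4e, 0.834 for Thbd and 0.794 for Atp1b3, against 1.09 for Spata13. Ratios of MedLow to HiMed are therefore given with and without it.

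A stricter form of the rule asks for a call in both comparisons. By quasi-likelihood tests in edgeR, adjusted after Benjamini and Hochberg, 38 of 17432 genes (0.218%) were called higher in MedLow than in both Low and HiMed, at an adjusted p below 0.05 in each comparison, and the 4 genes are among these 38, which says nothing more about them since the same values chose them. For the single comparisons, the background was 6.60% of genes called in MedLow over Low (4.08% higher, 2.52% lower), 13.5% in MedLow over HiMed (6.12% and 7.38%), 38.0% in MedLow over High (19.8% and 18.2%) and 41.4% in High over Low (20.1% and 21.2%), from which nothing is read about the 4 genes. Of the 38, 37 had their highest mean in MedLow, and Spata13 alone had it in High. Ordered by the smaller of the 2 log2 fold changes, Pla2g4e is at rank 6, Thbd at rank 10, Spata13 at rank 14 and Atp1b3 at rank 15. The first 5 are Bmp3 (1.33), a bone morphogenetic protein, Dynap (1.32), the cytochrome P450 Cyp2c65 (1.25), Gm3776 (0.95) and Pla2g4f (0.94). Just inside the threshold lie Car13 and Ugt1a7c, whose larger adjusted p were 0.0492 and 0.0498, and just outside lie Klhl25 and Spc25, both at 0.0554. The count was 70 with the replicate block (a term for the replicate number), 63 with DESeq2, and 5 without MedLow replicate 1. Without the restriction to a test, all 3 MedLow libraries lay above all 6 libraries of Low and HiMed for 491 genes (2.82%) in CPM and 262 genes (1.50%) in TPM. The 4 genes did so in CPM, and 3 of them in TPM, the exception being Spata13.

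**Figure D1:**
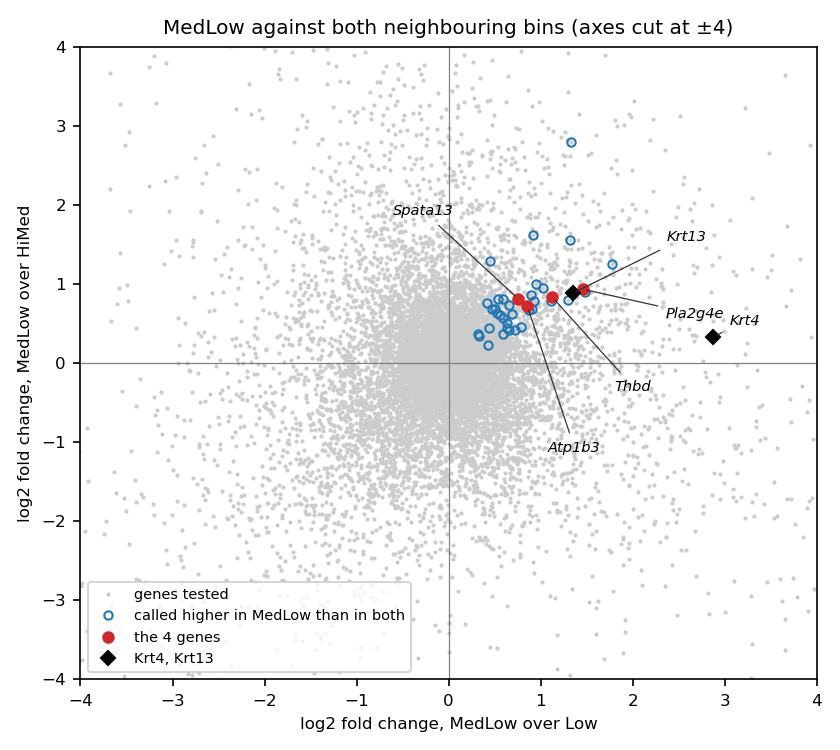
Log2 fold change of MedLow over Low (x axis) and of MedLow over HiMed (y axis) for every gene tested, in grey, with axes cut at ±4. Open circles are the other genes called higher in MedLow than in both neighbours, filled circles the 4 genes and diamonds Krt4 and Krt13. The 4 genes lie between 0.76 and 1.46 on the x axis and between 0.72 and 0.94 on the y axis, Krt13 lies beside Pla2g4e, and Krt4 lies far to the right at 2.88 and low at 0.33.

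Pla2g4e, the cytosolic phospholipase, was highest in MedLow and lowest in High. It stood at 26.4, 22.9 and 26.9 CPM in the Low libraries, 76.6, 58.6 and 74.1 in MedLow, 25.3, 47.3 and 36.9 in HiMed, then 7.92, 10.4 and 12.0 in High. The MedLow libraries were above all others, Low and HiMed overlapped, and High was below every other bin. The means were 25.4 ± 2.19, 69.8 ± 9.76, 36.5 ± 11.0 and 10.1 ± 2.07 CPM. MedLow was 2.75 times Low, 1.91 times HiMed (1.66 times without HiMed replicate 1) and 6.88 times High. The edgeR log2 fold changes were 1.46 over Low, 0.94 over HiMed and 2.78 over High. In TPM the means were 11.6 ± 0.445, 28.8 ± 5.69, 17.5 ± 4.44 and 4.40 ± 1.06, and the lowest MedLow library, at 22.3, was close to the highest HiMed library, at 21.2.

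Pla2g4f, a group IV relative of Pla2g4e that is next but one to it on chromosome 2, with Pla2g4d between them in the RefSeq annotation of GRCm38.p6, had a like course at a higher level. It had 62.1, 77.0 and 72.2 CPM in Low, 141, 154 and 137 in MedLow, 37.8, 111 and 75.8 in HiMed, then 32.9, 46.1 and 38.2 in High. MedLow lay above all other libraries, and HiMed replicate 1 lay below all of Low. Its log2 fold change was 1.03 over Low (SE 0.269, edgeR adjusted p = 0.0352) and 0.94 over HiMed (SE 0.268, adjusted p = 0.0324). The call over Low is lost without any 1 of the Low or MedLow libraries (adjusted p = 0.077 to 0.133), and the call over HiMed without any MedLow library or HiMed replicate 3 (adjusted p = 0.0604 to 0.101). Pla2g4f made up 59.6 ± 4.01% and Pla2g4e 22.5 ± 4.27% of the group IV TPM in MedLow. Together they made up 69.6 ± 1.85% in Low, 82.0 ± 1.36% in MedLow, 68.0 ± 12.4% in HiMed, then 56.6 ± 8.98% in High. The widely expressed Pla2g4a, the arachidonic acid releasing enzyme, had mean TPM of 15.1, 15.1, 17.8 and 18.8 and was not called in MedLow over Low (0.03, adjusted p = 0.975) or over HiMed (-0.11, adjusted p = 0.680). Pla2g4d, the gene between, did not exceed 0.381 TPM in any library. No label tells whether quantification used strand, so reads of overlapping neighbours cannot be told apart.

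Of 13 other phospholipase A2 genes tested, 2 were called higher in MedLow than in Low (15.4%, where 4.08% of all genes were) and 1 higher than in HiMed (7.69%, where 6.12% of all genes were). The median log2 fold changes were 0.02 and 0.16, beside -0.001 and 0.02 over all genes tested. The 2 were Pla2g4f and the secreted enzyme Pla2g2f, which had 13.2 ± 0.426 CPM in MedLow and 2.32 ± 0.686 CPM in Low (2.50, SE 0.599, edgeR adjusted p = 0.0227). That call is also lost without any 1 of the Low or MedLow libraries (adjusted p = 0.0546 to 0.0935). Pla2g7, which breaks down platelet-activating factor, was lower in MedLow than in HiMed (-2.05, SE 0.300, adjusted p = 5.1e-04).

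Of 22 genes of eicosanoid and N-acylethanolamine metabolism, 6 were higher (27.3%) and 1 lower in MedLow than in Low, where 4.08% and 2.52% of all genes were. Against HiMed, 1 was higher (4.55%) and 5 lower in MedLow, where 6.12% and 7.38% of all genes were. The median log2 fold changes were 0.14 and -0.3. Alox12e, an epidermal lipoxygenase, averaged 54.5 ± 15.3 CPM in MedLow, against 17.9 ± 3.71 in Low and 106 ± 5.93 in HiMed, and so climbed with brightness (1.60 over Low, edgeR adjusted p = 3.2e-04; -0.96 over HiMed, adjusted p = 0.00563). The cyclooxygenase Ptgs1 was higher in MedLow than in HiMed and not called against Low, with 33.0 ± 3.81 CPM in MedLow, against 54.1 ± 5.55 in Low (-0.71, adjusted p = 0.347) and 7.90 ± 4.24 in HiMed (2.07, adjusted p = 0.00246). Faah, the hydrolase that ends the signal of N-acylethanolamines, was lower in MedLow than on both sides, with 1.96 ± 0.357 CPM, against 6.07 ± 1.59 in Low (-1.63, adjusted p = 0.00105) and 6.22 ± 1.06 in HiMed (-1.67, adjusted p = 4.7e-04).

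Thbd had the same order of bins as Pla2g4e at a higher level. It had 141, 126 and 119 CPM in Low, 320.1, 252 and 269.6 in MedLow, 138, 169.5 and 163 in HiMed, then 85.5, 71.8 and 61.8 in High. MedLow was above every other library, Low and HiMed overlapped, and High was below all. The means were 129 ± 11.2, 280.5 ± 35.5, 157 ± 16.3 and 73.0 ± 11.9 CPM, and MedLow was 2.18 times Low, 1.79 times HiMed (1.69 times without HiMed replicate 1) and 3.84 times High. The edgeR log2 fold changes were 1.12, 0.84 and 1.94.

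Thrombomodulin is best known from endothelium and is also found on myeloid cells. Summed markers of endothelium and of leukocytes were lower in MedLow than in every other bin, and the part of such cells in the level of Thbd was not tested. The 6 endothelial markers tested, of 10 listed, summed to 10.2 to 13.5 CPM in the MedLow libraries. They summed to 16 to 26.2 in Low, 25.1 to 41.8 in HiMed, then 48.4 to 84.0 in High. Cdh5, Emcn, Cldn5 and Plvap were at 0 in every MedLow library. Emcn was at 0 in the other bins too, and Cdh5 and Plvap did not exceed 0.13 and 0.524 TPM in any library. Of the 6 endothelial markers tested, edgeR called 1 lower in MedLow than in HiMed (Tek, -2.27, adjusted p = 0.00144) and 0 in MedLow against Low, where 1 was lower at an unadjusted p under 0.05, 1 with DESeq2 and 1 with the replicate block. The 9 leukocyte and Langerhans cell markers tested, of 12 listed, summed to 41.2 to 44.7 CPM in MedLow. They summed to 65.3 to 76.3 in Low, 65.1 to 97.4 in HiMed, then 130.4 to 328 in High. Cd207, Itgax and Cd3e were at 0 in every MedLow library, but none of them exceeded 0.209 TPM in any library. H2-Ab1 reached 47.1 TPM in MedLow, and its highest level in any library was 53.9 TPM. Of the 9 tested, 2 were lower in MedLow than in HiMed (Itgam and Lyz2, neither of them called without MedLow replicate 1), and 0 were called against Low, where 5 were lower at an unadjusted p under 0.05, 2 with DESeq2 and 1 with the replicate block. Over all genes, 7.38% were called lower in MedLow than in HiMed and 2.52% lower than in Low.

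Of 16 genes of thrombin, protein C and fibrinolysis tested, 2 were higher and 1 lower in MedLow than in Low, and 3 were higher and 4 lower in MedLow than in HiMed, with medians of -0.05 and 0.05. Over all genes, 6.60% and 13.5% were called in these comparisons. Procr, the protein C receptor, averaged 78.3 ± 2.08 CPM in MedLow, against 109 ± 15.4 in Low and 33.9 ± 4.43 in HiMed. It was lower than in Low (-0.48, SE 0.125, edgeR adjusted p = 0.0361, and 0.168 without Low replicate 1) and higher than in HiMed (1.21, SE 0.127, adjusted p = 4.1e-05). Serpine2, a thrombin inhibitor, averaged 91.9 ± 14.8 CPM in MedLow, against 21 ± 2.38 in Low (2.13, adjusted p = 1.9e-06) and 403 ± 58.6 in HiMed (-2.13, adjusted p = 1.1e-06). The thrombin receptor F2r averaged 65.7 ± 9.95 CPM in MedLow, against 50.4 ± 2.36 in Low (0.38, not called, adjusted p = 0.148) and 170 ± 33.0 in HiMed (-1.37, adjusted p = 3.2e-05).

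**Figure D2:**
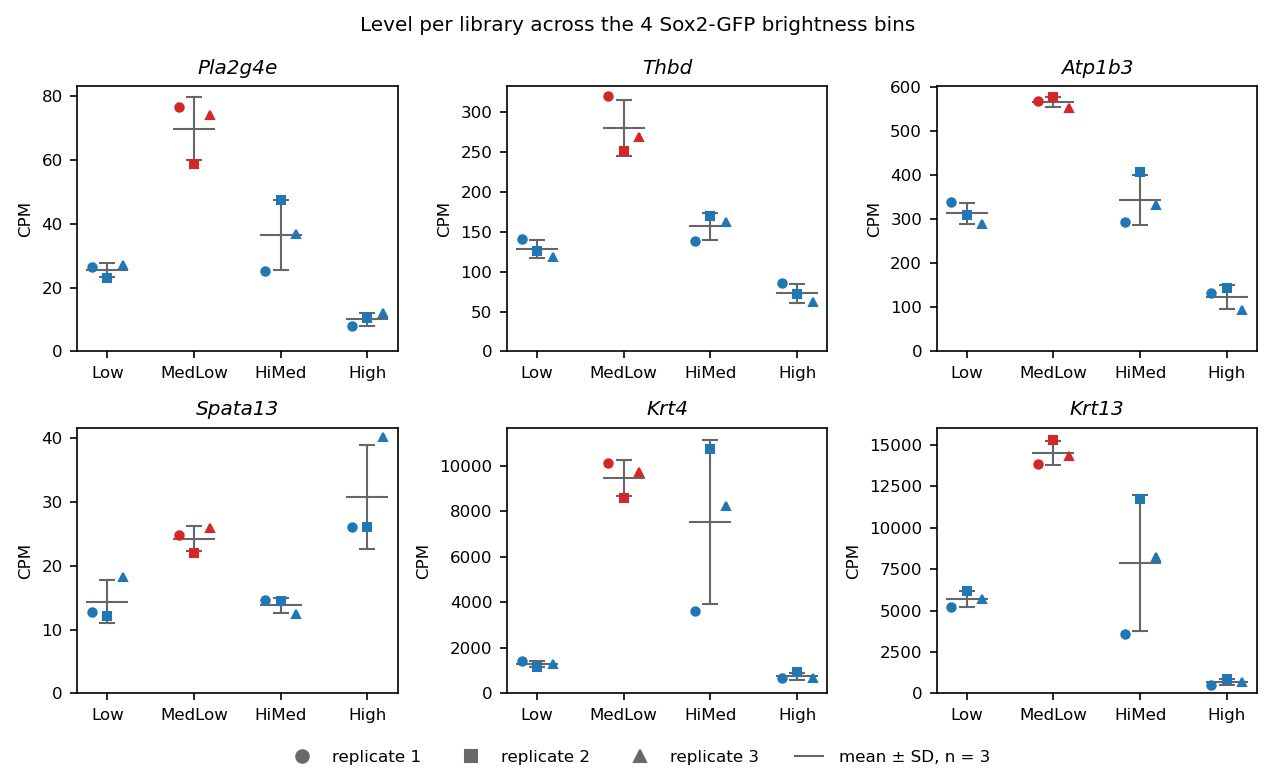
CPM per library (y axis, from 0) in the 4 bins in order of brightness (x axis) for Pla2g4e, Thbd, Atp1b3, Spata13, Krt4 and Krt13. Points are libraries, the marker shape gives the replicate number, bars are mean ± SD over 3 libraries, and MedLow is in red. For Pla2g4e, Thbd and Atp1b3 the MedLow libraries stand above all others, Spata13 is highest in High, and HiMed replicate 1 (circles) is far below the other HiMed libraries for both keratins.

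Atp1b3 was the most abundant of the 4 and the least variable in MedLow. Its CPM were 339, 309.9 and 290 in Low, 569, 576 and 553 in MedLow, 293, 406 and 332 in HiMed, then 132, 144 and 93.5 in High. MedLow lay above all other libraries, Low and HiMed overlapped, and High lay below. The means were 313 ± 24.4, 566 ± 11.8, 343 ± 57.3 and 123 ± 26.4 CPM, with MedLow at 1.81 times Low, 1.65 times HiMed (1.53 times without HiMed replicate 1) and 4.59 times High. The edgeR log2 fold changes were 0.86, 0.72 and 2.20.

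Per length, Atp1b3 held most of the beta subunit TPM in every library of Low, MedLow and HiMed and in 2 of 3 High libraries. It held 88.8 ± 3.61% of beta subunit TPM in Low, 96.0 ± 1.26% in MedLow, 91.1 ± 3.04% in HiMed, then 49.8 ± 15.6% in High, where the libraries had 55.2%, 62.0% and 32.2%. Atp1b1, the beta subunit typical of many epithelia, had mean TPM of 31.6, 18.7, 27.8 and 124, the reverse order of Atp1b3, and was lower in MedLow than in High (-2.48, SE 0.254, edgeR adjusted p = 4.4e-06). Of the 9 other pump subunits and FXYD regulators tested, 0 were called higher in MedLow than in Low or HiMed. In MedLow against Low, 1 was called lower (0 without Low replicate 1), with a median of -0.59. Against HiMed, 1 was called lower (Fxyd6, -1.13, edgeR adjusted p = 0.0169, and 0.0615 without HiMed replicate 1), with a median of -0.58. Over all genes, 2.52% and 7.38% were called lower in these comparisons, with medians of -0.001 and 0.02.

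**Figure D3:**
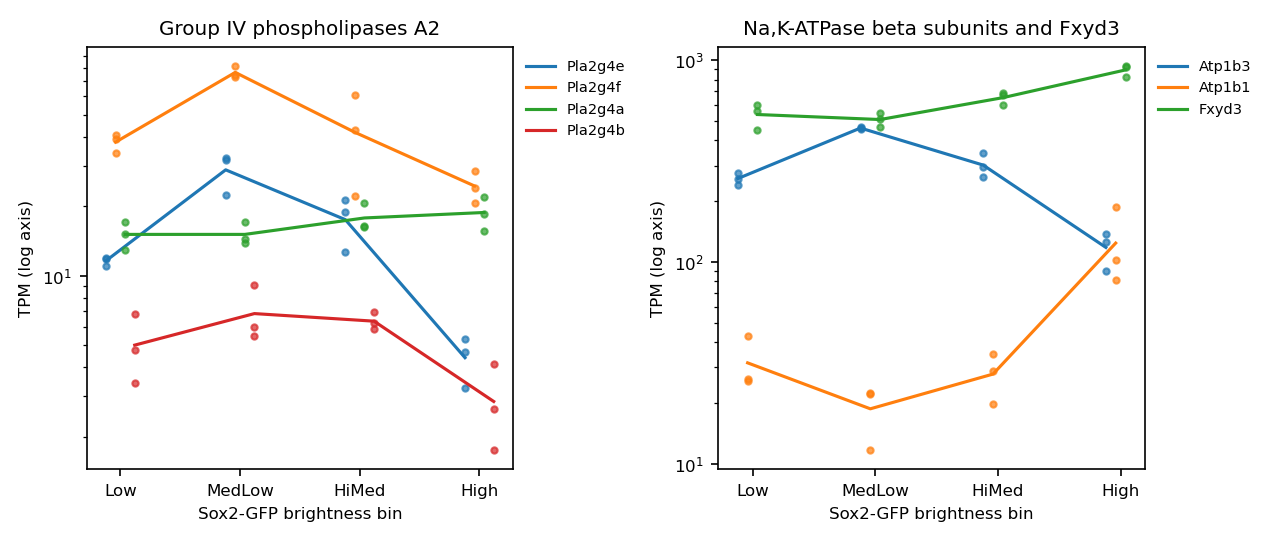
TPM (log y axis) in the 4 bins (x axis) for Pla2g4e with 3 other group IV phospholipases (left) and for Atp1b3 with the beta subunit Atp1b1 and the regulator Fxyd3 (right). Points are libraries and lines join the means of 3 libraries. Pla2g4e and Pla2g4f both top in MedLow at 28.8 and 76.3 TPM, Pla2g4a stays between 15.1 and 18.8, and Atp1b1 is lowest in MedLow at 18.7 and highest in High at 124.

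Spata13 differed from the other 3 in its course. It had 12.7, 12.1 and 18.2 CPM in Low, 24.8, 22 and 25.9 in MedLow, 14.6, 14.4 and 12.4 in HiMed, then 26.1, 26.1 and 40.1 in High. MedLow was above every Low and HiMed library but below every High library, by a narrow margin. Low and HiMed overlapped. The means were 14.3 ± 3.34, 24.2 ± 2.02, 13.8 ± 1.21 and 30.8 ± 8.06 CPM, with MedLow at 1.69 times Low, 1.76 times HiMed (1.81 times without HiMed replicate 1) and 0.788 times High. The log2 fold changes were 0.76, 0.81 and -0.34, and High over Low was 1.10.

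The TPM of Spata13 did not keep this order. They were 3.69, 2.82 and 7.10 in Low, 15.5, 9.84 and 7.04 in MedLow, 5.29, 4.72 and 5.09 in HiMed, then 6.84, 8.36 and 24.5 in High. MedLow replicate 3 fell just below Low replicate 3, and MedLow and High overlapped. The 2 scales differ by the transcript length that the quantification implied, which for Spata13 varied 2.94-fold over the 12 libraries, a spread that 2.02% of 9948 genes exceeded (median 1.27-fold). Relative to its mean the implied length was 0.509, 0.718 and 1.22 in MedLow and 1.49, 1.16 and 0.632 in High, so replicates of 1 bin disagreed. The spread was 1.42-fold for Pla2g4e, 1.06-fold for Atp1b3 and 1.04-fold for Thbd. Which transcripts of Spata13 were used cannot be told from gene totals.

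**Figure D4:**
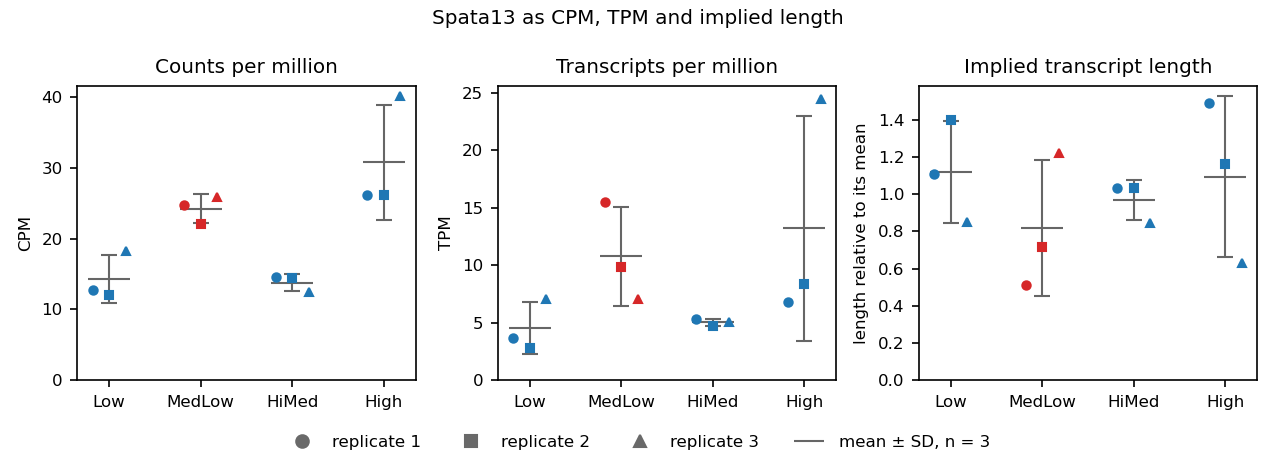
Spata13 per library in the 4 bins (x axis) as CPM (left), as TPM (centre) and as the transcript length implied by their ratio, relative to its mean over the 12 libraries (right). Points are libraries, with the marker shape for the replicate number, bars are mean ± SD over 3 libraries, and MedLow is in red. In CPM the MedLow points are clear of Low and HiMed, in TPM MedLow replicate 3 (7.04) meets Low replicate 3 (7.10), and the implied length runs from 0.509 to 1.49.

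Of 25 relatives and partners of Asef2 tested, 2 were higher and 1 lower in MedLow than in Low, where 6.60% of all genes were called. Against HiMed, 2 were higher and 4 lower in MedLow, where 13.5% of all genes were called. The medians were -0.01 and -0.05. The closest relative Arhgef4 was not called in MedLow over Low (0.14, edgeR adjusted p = 0.486) or over HiMed (0.20, adjusted p = 0.156), and neither were Rac1, Cdc42 and Apc. The exchange factor Vav3 fell along the bins, at 155 ± 27.3 CPM in MedLow, against 251 ± 32.4 in Low (-0.70, adjusted p = 0.0047) and 47.5 ± 4.58 in HiMed (1.71, adjusted p = 4.2e-06). The Rac exchange factor Tiam2 rose, at 39.0 ± 4.23 CPM in MedLow, against 25.8 ± 1.43 in Low (0.60, adjusted p = 0.0032) and 62.9 ± 5.48 in HiMed (-0.69, adjusted p = 5.7e-04).

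Krt4 and Krt13 also had their highest means in MedLow, each with a shape of its own. Krt4 had 1439, 1160.4 and 1275 CPM in Low, 10134, 8576 and 9712 in MedLow, 3639.8, 10727 and 8259.8 in HiMed, then 665, 941 and 681 in High. It formed a plateau over the middle bins, since HiMed replicate 2 was above all MedLow libraries. Its log2 fold change was 2.88 over Low (SE 0.294, edgeR adjusted p = 5.9e-05), 3.64 over High (SE 0.304, adjusted p = 7.2e-07) and 0.33 over HiMed (SE 0.274, adjusted p = 0.52, not called). MedLow was 1.26 times HiMed with HiMed replicate 1 and 0.998 times without it.

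Krt13 had 5194, 6191 and 5690.2 CPM in Low, 13850.5, 15276 and 14321 in MedLow, 3585, 11744 and 8225 in HiMed, then 485, 874 and 689 in High. MedLow was above all other libraries, HiMed spanned the whole range of Low, and High was far below. Its log2 fold change was 1.35 over Low (SE 0.311, edgeR adjusted p = 0.0187), 4.41 over High (SE 0.351, adjusted p = 4.7e-07) and 0.88 over HiMed (SE 0.308, adjusted p = 0.0786, not called). With the replicate block the last became 1.00 (adjusted p = 0.00805), and it was 0.54 without HiMed replicate 1 (adjusted p = 0.124). The call over Low is lost without any 1 of the Low libraries, MedLow replicate 2 or MedLow replicate 3 (adjusted p = 0.0506 to 0.0762).

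Within replicate numbers, MedLow was above both neighbours in 3 of 3 for each of the 4 genes and Krt13. That follows from their MedLow libraries lying above all of Low and HiMed in CPM, as for 2.82% of all genes. It adds nothing about the 4 genes, which were selected on these values. For Krt4, MedLow was above both in 2 of 3, and its MedLow library was 0.799 times its HiMed library in replicate 2. MedLow held 49.2% of the summed bin means of Pla2g4e, 43.9% of Thbd, 42.1% of Atp1b3 and 29.2% of Spata13, against 49.7% of Krt4 and 50.4% of Krt13. MedLow was 12.4 times High for Krt4 and 21.2 times for Krt13, against 3.84 to 6.88 times for Pla2g4e, Thbd and Atp1b3. It was 7.34 times Low for Krt4, but 2.54 times for Krt13, inside the 1.81 to 2.75 times of those 3 genes. It was 1.26 times HiMed for Krt4 and 1.84 times for Krt13, against 1.65 to 1.91 times for the 3 genes. Without HiMed replicate 1 it was 0.998 times HiMed for Krt4 and 1.45 times for Krt13, both below the 1.53 to 1.69 times of the 3 genes.

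Shapes were set side by side as the root mean square difference of log2(mean CPM + 1) over the 4 bins, each gene centred on its own mean, among 10042 genes with at least 10 CPM in their highest bin. On this measure, in log2 units, Thbd and Atp1b3 were 0.193 apart, Pla2g4e and Atp1b3 0.226, and Pla2g4e and Thbd 0.288. Spata13 was 0.924 to 1.21 from those 3. Pla2g4e was nearest to the keratins, at 0.768 from Krt13 (10.8% of the pool was nearer to Pla2g4e) and 0.798 from Krt4 (13.9%). Atp1b3 was 0.882 from Krt13 (67.0%) and 0.995 from Krt4 (79.8%), Thbd was 1.04 (87.4%) and 1.01 (86.4%) from them, and Spata13 1.96 (99.0%) and 1.77 (98.5%). Seen from Krt4, 0.229% of the pool was nearer than Pla2g4e, 0.488% than Atp1b3, 0.528% than Thbd and 86.0% than Spata13. Seen from Krt13, the shares were 0.538%, 0.876%, 1.68% and 86.8% in the same order. Few genes lay nearer to either keratin than Pla2g4e, Atp1b3 and Thbd did, but seen from Atp1b3 and Thbd most of the pool was nearer than either keratin. The 4 genes were selected on their levels in MedLow, Low and HiMed, which enter the distance, so nothing further is read from these ranks. Krt4 and Krt13 were themselves 0.898 apart. These distances are a description over 4 points that come from the same 12 libraries.

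**Figure D5:**
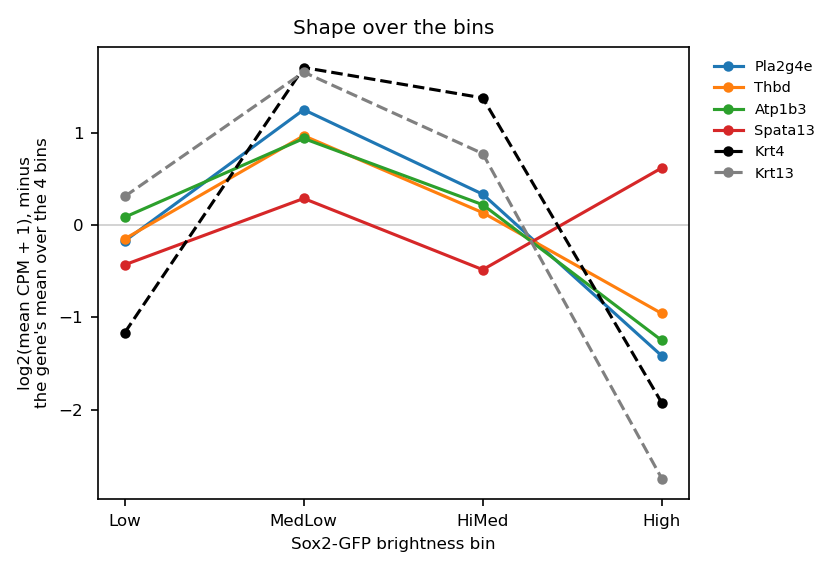
Log2(mean CPM + 1) minus the gene's own mean over the 4 bins (y axis) in each bin (x axis), for the 4 genes (solid) and for Krt4 and Krt13 (dashed). Pla2g4e, Thbd and Atp1b3 run close together with a top in MedLow, Spata13 zigzags to its top in High, Krt4 stays high in HiMed, and Krt13 drops to -2.75 in High.

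Set against Krt13 counts, Pla2g4e was almost level in the 3 dimmer bins. Per 1000 Krt13 counts there were 4.50 ± 0.72 Pla2g4e counts in Low, 4.85 ± 0.894 in MedLow, 5.19 ± 1.64 in HiMed, then 15.3 ± 2.92 in High. The libraries of Low, MedLow and HiMed overlapped and those of High lay above. Thbd had 22.8 ± 3.75, 19.5 ± 3.36, 24.3 ± 12.7 and 116 ± 52.3 counts per 1000 Krt13 counts, and Atp1b3 had 55.4 ± 8.48, 39.1 ± 1.75, 52.2 ± 25.7 and 191 ± 72.1. Against Krt4 the order was another, with 19.7 ± 1.38 Pla2g4e counts per 1000 Krt4 counts in Low, 7.34 ± 0.441 in MedLow, 5.28 ± 1.46 in HiMed, then 13.6 ± 3.59 in High. Spata13 had 2.53 ± 0.623, 1.68 ± 0.208, 2.27 ± 1.57 and 47.3 ± 15.3 counts per 1000 Krt13 counts in the 4 bins. The HiMed means against Krt13 rest largely on replicate 1, which was low in Krt13. It had 7.07 for Pla2g4e, against 4.02 and 4.48 in replicates 2 and 3, and 38.6 for Thbd, against 14.4 and 19.8. Likewise it had 81.7 for Atp1b3, against 34.5 and 40.3, and 4.07 for Spata13, against 1.22 and 1.51. In replicates 2 and 3 no HiMed ratio to Krt13 exceeded the gene's highest MedLow ratio.

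The genes nearest in shape were found by the same measure, and being chosen for likeness they carry no test. Nearest to Pla2g4e were Sdr16c5, a retinol dehydrogenase (0.0714, with means of 11.3, 29.6, 17.4 and 4.36 CPM), Il1r2, the decoy receptor of interleukin 1 (0.076), and Cldn1, a tight junction claudin (0.143). Nearest to Thbd were Pla2g4f (0.0771), the transcription factor Sox7 (0.144) and Vsnl1, a neuronal calcium sensor (0.147). Nearest to Atp1b3 were Vsnl1 (0.092), the carbonic anhydrase Car13 (0.106) and Atp6v0a4, a proton pump subunit (0.107). Nearest to Spata13 were Plat, tissue plasminogen activator (0.102, with means of 14.2, 21, 14.3 and 32.1 CPM), Myb (0.166) and Fbp2 (0.194). Of the 3 named for each, 2, 2, 2 and 1 were also among the 3 nearest in TPM. Nearest to Krt4 was the water channel Aqp4 (0.234), nearest to Krt13 the tubulin Tuba8 (0.142), and none of the 4 was among the 3 nearest to either keratin.

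Other layers of the epithelium moved beside the 4 genes. Of 31 suprabasal keratinocyte genes, 11 were higher in MedLow than in Low (35.5%, where 4.08% of all genes were; 17 with the replicate block and 6 without Low replicate 1), with a median of 0.54. Krt6b, a stress keratin, averaged 1869 ± 310.5 CPM in MedLow and 513 ± 106 in Low (1.87, edgeR adjusted p = 0.00206). Against HiMed, 5 were higher and 5 lower in MedLow (10 and 7 with the block, 2 and 6 without HiMed replicate 1). Over all genes, 6.12% were higher and 7.38% lower in that comparison. Of 12 basal genes, 9 were lower in MedLow than in Low (2.52% of all genes were) and 4 higher than in HiMed (6.12% of all genes were). Krt14, the basal keratin, averaged 3084 ± 344 CPM in MedLow, against 7397 ± 321 in Low (-1.26, adjusted p = 5.4e-05) and 1492 ± 190.4 in HiMed (1.05, adjusted p = 1.1e-04).

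Genes of G2 and M phase, made by dividing cells, had their highest summed level in MedLow. It was 1574 to 1777 CPM in the MedLow libraries, against 1124 to 1490.5 in Low, 924 to 1038 in HiMed, then 511 to 764 in High. Of 14 tested, 2 were higher in MedLow than in Low (median 0.46; 9 at an unadjusted p under 0.05, and 5 without High replicate 3) and 10 higher than in HiMed (median 0.72, 7 without HiMed replicate 1). The 2, Aurka and Top2a, are also among the 38, and neither was called over Low without Low replicate 1. Over all genes, 4.08% were higher in MedLow than in Low and 6.12% higher than in HiMed. Cenpf, a kinetochore protein, averaged 169.5 ± 13.7 CPM in MedLow, against 123 ± 24.1 in Low (0.46, not called, edgeR adjusted p = 0.133) and 90.2 ± 16.4 in HiMed (0.91, adjusted p = 0.00233).

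Of 8 taste bud keratins and related genes, 2 were lower in MedLow than in Low and 7 lower than in HiMed (6 without HiMed replicate 1), with medians of -0.34 and -1.03. Krt18, a simple keratin of taste cells, averaged 95.5 ± 17.2 CPM in MedLow, against 199 ± 30.3 in Low (-1.06, edgeR adjusted p = 0.00265) and 215 ± 17.5 in HiMed (-1.17, adjusted p = 7.1e-04). Of 12 markers of type II and III taste cells, 2 were lower in MedLow than in Low (4 with the replicate block) and 2 lower than in HiMed, both lost without HiMed replicate 1. Of 8 von Ebner gland genes 5 (2 without MedLow replicate 1), and of 3 fibroblast markers 1 (Dcn), were lower in MedLow than in Low. The fibroblast markers summed to 101 to 187 CPM in MedLow and 590.4 to 632 in Low. That sum is mostly Dcn, which reached 602 TPM, while no other listed fibroblast marker exceeded 2.18 TPM in any library. Over all genes, 2.52% were lower in MedLow than in Low and 7.38% lower than in HiMed. The part of these layers, of dividing cells and of other cell types in the levels of the 4 genes was not tested.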

How the data were processed

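RNA was measured in 12 libraries, 3 for each of 4 bins of sorted papilla cells. Per the submitters' processing notes, Salmon 1.4.0, DESeq2 1.28.1 and build mm39 were used. For the role of DESeq2, the annotation and the summing to genes the sources used here give no detail. The authors deposited estimated counts (expected counts per gene symbol, not scaled), of which 8.24 to 13.0% per library are not whole, and TPM values.

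Counts were rounded and fitted with edgeR 4.0.16 (R 4.3.3). Of all symbols, 17432 passed filterByExpr at a count of 10 (35238 did not and held 0.034% of counts), scaling was by TMM, and all 12 libraries entered 1 quasi-likelihood model with a coefficient for each bin. Benjamini-Hochberg adjustment ran over all genes tested in each comparison, with 0.05 as the threshold of a call. Standard errors are those the F statistic implies. Alternatives were RLE or library size scaling, DESeq2 1.42.0, no filter, a replicate block, each library left out, and limma 3.58.1 on log2(TPM + 1) or log2(TPM + 0.1). The fit was tested on simulated data.

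The members and the 14 lists (222 symbols, 221 in the files, 188 tested) were chosen with earlier results of these data known. Genes named are the members, both keratins, Sox2, eGFP, up to 4 called genes of each list with the largest change, the 3 nearest in shape, the 5 leading genes of the 38 and those at the threshold. Levels of Pla2g4 and Na,K-ATPase genes may be given too. Some genes of the Na,K-ATPase list are not reported here. Arhgef4, Rac1, Cdc42, Apc, Top2a, H2-Ab1 and the markers listed at 0 lie outside this rule and were named after their values were seen.

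Replicate numbers recur in every bin, and the series describes a replicate as a pool of mice. They were therefore taken to pair libraries in the replicate block and within replicate numbers, although the labels do not say so outright. The main model holds no term for this pairing, so its adjusted p do not use it. The correlation of deviations from bin means (9650 genes) was 0.0586 to 0.411 for 18 pairs of libraries with 1 number, 15 of them above 0.1, and -0.321 to 0.101 for the other 36. Libraries of a bin differed by more than counting noise (chi-square per degree of freedom 27.5 to 92.4). Adjusted p measure the spread between these pools.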

Additional observations from a re-analysis of the deposited data

How the results depend on the processing

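The count of 38 genes higher in MedLow than in both neighbours was 34 with RLE scaling and 29 with library size only, but 63 with DESeq2, 73 with no filter on low counts, 70 with the replicate block, 12 with limma on log2(TPM + 1), 6 with log2(TPM + 0.1), 25 with log2(TPM + 1) unfiltered, and 5 to 51 with 1 library left out, the lowest without MedLow replicate 1. DESeq2 kept all 38, the replicate block 37, no filter 35 and log2(TPM + 1) 8. As a description, since the same values chose the 4 genes, Thbd and Atp1b3 were in the set in each of these settings. Pla2g4e was lost with the 3 TPM settings. Spata13 was lost with the same 3 and without Low replicate 1 or 2, any MedLow replicate, or HiMed replicate 3. Genes called in MedLow over Low numbered 1151, and 704, 663 and 588 with the 3 TPM settings in the same order and 677 to 1318 with 1 library left out. Those in MedLow over HiMed numbered 2352, and 1526, 1512 and 1210, and 1370 to 2521. Listed genes called numbered 48 over Low and 61 over HiMed, against 24 and 34 with TPM unfiltered, and 31 to 59 and 42 to 70 with 1 library left out. Krt13 over Low was 1.29 to 1.41 with 1 library left out and 1.31 with TPM unfiltered (adjusted p = 0.115). Krt13 over HiMed was 0.54 to 1.29 with 1 library left out, and it was called with no filter (0.87, adjusted p = 0.00682), with the replicate block (1.00, adjusted p = 0.00805) and without HiMed replicate 2 (1.29, adjusted p = 0.0116). For members the direction held in all settings. Pla2g4e was 1.23 over Low and 2.46 over High with log2(TPM + 1), filtered or not. Thbd over High was 1.67 with log2(TPM + 1), filtered or not, and 1.70 with log2(TPM + 0.1). Spata13 over Low was 1.10 with log2(TPM + 1), filtered or not, and 1.27 with log2(TPM + 0.1), which gave 1.01 over HiMed. The cause was not tested. Beside the counts given with it, the replicate block also brought Sdr16c5, Sox7, Sprr3, Krt6b, Ces1h, Tuba8 and Spc25 over HiMed and Lyz2, Otop1, Defb4 and Klhl25 over Low past the threshold, and it changed no other call among the genes named by the rule. Spata13 lay at 12.1 to 40.1 CPM in libraries of 25.7 M to 55.6 M counts, and a limit from depth was not tested.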
